A study of Mus musculus with 10 samples.

Results

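Arid1a and Ctcf peaks of wildtype AB17 cells were compared by position. The Arid1a list held 70157 summits and the Ctcf list 89238 summits on the 19 autosomes, together 159395 of the 819400 summits in the 8 peak lists of the series. A summit is the single position of highest signal that the peak caller gives for a peak, and 2 summits were called partners when they lay at most 1 kb apart. All autosomal summits of both lists were used, split by the −log10 q-value of the peak and by position, where promoter means within 2 kb of an annotated transcript start and distal means all the rest. The question was how often the SWI/SNF subunit and the architectural protein were found at the same places, and at which kind of place.

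The series profiled 10 samples by chromatin immunoprecipitation and sequencing (ChIP-seq) in AB17 cells. This is a line of C57BL/6 mouse hepatocytes with both Arid1a alleles flanked by loxP sites (Arid1a fl/fl), immortalized with SV40 large T antigen and then transduced with H-Ras V12D. Both lists compared here came from cells infected with the adenoviral control vector Ad-GFP, which keep Arid1a and were labelled WT. The knockout (KO) cells received Ad-Cre, and for them the lists of H3K9me3 and H3K27me3 were used. Arid1a, Ctcf, Brg1 and Rad21 libraries were analysed from WT cells only, and the histone marks from both genotypes. Each of these was 1 library, so nothing below was checked against replicates or given a p-value. Intervals in parentheses are 95% Wilson binomial intervals of a share and cover counting error only. All values describe a single transformed line. An Arid1a library from KO cells, which would show the background of the antibody, was not analysed here. The WT lists were presumably called against the same WT input, as the titles give 1 input per genotype, and features of that input that all WT lists share cannot be told apart from common occupancy.

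Arid1a is the DNA-binding subunit that defines the canonical BAF form of the SWI/SNF complex, which slides and evicts nucleosomes with the ATPase Brg1 or its paralog Brm and is found at active promoters and enhancers. Ctcf is a zinc finger protein that recognises a long GC-rich motif and halts the loop-extruding cohesin ring, of which Rad21 is a subunit, at loop anchors and domain borders. Ctcf also binds near many gene starts.

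Sites were named by the rule given in the methods. There were 8 promoter and 8 distal shared sites (an Arid1a summit with a strong Ctcf partner). Of Ctcf alone there were 4 promoter and 4 distal sites. The reference sequence at the Ctcf summit held the Ctcf consensus within 50 bp in 4 of the shared sites. It did so in 3 of the sites of Ctcf alone. These counts are too small to compare how often the motif occurs, which is given for larger sets further below. The sequences are shown so that the motif can be read at both kinds of site. They were read from GRCm38 (mm10), 5′ to 3′ on the strand that carries the motif, with the 12 bases that match the consensus in capitals and 20 bases on each side.
Rplp0, shared, promoter, chr5:115559270-115559321, plus strand: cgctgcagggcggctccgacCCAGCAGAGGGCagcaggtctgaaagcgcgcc
Ppp1r10, shared, intron, chr17:35921373-35921424, plus strand: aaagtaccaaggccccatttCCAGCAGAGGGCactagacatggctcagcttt
Hspa8, shared, distal, chr9:40806536-40806587, plus strand: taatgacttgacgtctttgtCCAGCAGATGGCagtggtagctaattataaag
Hcn2, shared, intergenic, chr10:79712587-79712638, plus strand: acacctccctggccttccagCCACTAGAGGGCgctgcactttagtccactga
A530032D15Rik, Ctcf alone, promoter, chr1:85114866-85114917, minus strand: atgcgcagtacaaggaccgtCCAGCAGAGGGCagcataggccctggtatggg
Fam92b, Ctcf alone, promoter, chr8:120179052-120179103, plus strand: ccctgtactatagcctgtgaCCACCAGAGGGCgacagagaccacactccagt
Sec22c, Ctcf alone, intron, chr9:121697728-121697779, plus strand: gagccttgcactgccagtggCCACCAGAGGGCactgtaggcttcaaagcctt
The match centre lay 7 bp from the Ctcf summit at Rplp0, 41 bp at Ppp1r10, 42 bp at Hspa8 and 20 bp at Hcn2. It lay 12 bp from the summit at A530032D15Rik and 3 bp at Fam92b. At Sec22c the motif was found in both of a pair of near-identical repeats around the summit, at 22 and 23 bp from it, and the first copy is printed.

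Peak heights were distributed differently within the lists. The median −log10 q-value was 2.70 for Arid1a and 4.02 for Ctcf, with 76 Arid1a and 24143 Ctcf summits at 10 or more. The value depends on depth and antibody, and it was therefore used only to rank summits within a list, and the medians are given to show where the classes fall. How deeply the libraries were sequenced cannot be read from the lists. For Arid1a, 16.5% of all summits carried the same value of 2.70, so the weak classes hold many ties near the calling threshold. The promoter share of Arid1a summits was 22.3% under 2.5, 26.6% from 2.5 to 5, 64.3% from 5 to 10 and 85.5% at 10 or more. For Ctcf the same classes held 25.5%, 25.6%, 27.2% and 27.6% promoter summits. At 10 or more, Arid1a summits were thus mostly promoter summits and Ctcf summits were not. The same cut takes 0.108% of Arid1a and 27.05% of Ctcf summits, so these classes are unlike ranks. At 50 or more, 1548 of 4710 Ctcf summits were promoter summits.

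Of the Arid1a summits, 19.3% (19.04 to 19.63) had a Ctcf summit within 1 kb. The expectation was measured by moving the Ctcf list 1000 times along the chromosomes. Random circular shifts, which keep the spacing within the list, gave a mean of 7.21%. Local displacement, in which each chromosome's list was moved by 10 to 50 kb to keep its regional density, gave a mean of 11.7% (range 11.3 to 12.1), and the observed share was 1.65 times this mean. Promoter Arid1a summits had a Ctcf partner in 37.3% (36.6 to 38.1) against 16.3% displaced, a ratio of 2.29. Distal Arid1a summits had one in 13.1% (12.8 to 13.4) against 10.1% displaced, a ratio of 1.29. The distal excess was thus 2.95 percentage points, and the promoter excess 21.03 points. A displaced list no longer follows the transcript starts, so the promoter ratio also contains the preference of both proteins for starts, which is taken up at the gene starts below.

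The observed share was larger in the classes of higher Arid1a peaks up to 10, although the intervals of the lowest distal classes touched. The observed share was 32.5% (31.4 to 33.7) for promoter summits under 2.5, 38.2% (37.3 to 39.1) from 2.5 to 5, 55.6% (52.6 to 58.6) from 5 to 10 and 58.5% (46.3 to 69.6) for the 65 summits at 10 or more. The displaced means of these classes were 16.3%, 16.1%, 18.01% and 25.4%, so the ratio went from 1.998 to 2.37 and 3.09 and then down to 2.30 in the highest class. For distal summits the share was 12.5% (12.03 to 12.9), 13.3% (12.9 to 13.6) and 25.8% (22.4 to 29.4) in the first 3 classes, against 10.08%, 10.07% and 14.4% displaced. The class of distal Arid1a summits at 10 or more had 11 members, of which 6 had a partner, and its interval of 28.0 to 78.7% is too wide to rank it. Of the 76 Arid1a summits at 10 or more, 44 had a Ctcf partner of any height, 14 had one at 10 or more, 71 had a Brg1 summit and 45 had a Rad21 summit within 1 kb. Over all Arid1a summits, Brg1 was within 1 kb of 31.1% and Rad21 of 25.02%.

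In the other direction, 15.2% (15.0 to 15.5) of Ctcf summits had an Arid1a summit within 1 kb, against means of 5.90% for shifted and 9.43% for displaced lists. Promoter Ctcf summits had one in 28.2% (27.7 to 28.8) against 10.7% displaced, and distal ones in 10.6% (10.3 to 10.8) against 8.98% displaced. The ratios were 2.64 and 1.18. Across the Ctcf classes the observed share differed little. The cuts fall at unlike ranks in the Arid1a and Ctcf lists, so this cannot be set against the Arid1a classes. The distal share was 10.1% (9.52 to 10.6) under 2.5 and 11.2% (10.8 to 11.7) at 10 or more. The displaced mean, however, went from 9.82% to 8.06% between these classes, and the ratio from 1.02 to 1.39. At a −log10 q-value of 50 or more, distal Ctcf summits had an Arid1a partner in 17.2% (15.9 to 18.6) of 3162, against 9.85% displaced, and promoter ones in 36.4% (34.0 to 38.8) of 1548, against 11.8%. Of these strongest distal Ctcf summits, 2618 had no Arid1a summit within 1 kb. That Arid1a peaks were low limits this count, since a site just under the calling threshold is counted as free of Arid1a.

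**Figure D1:**
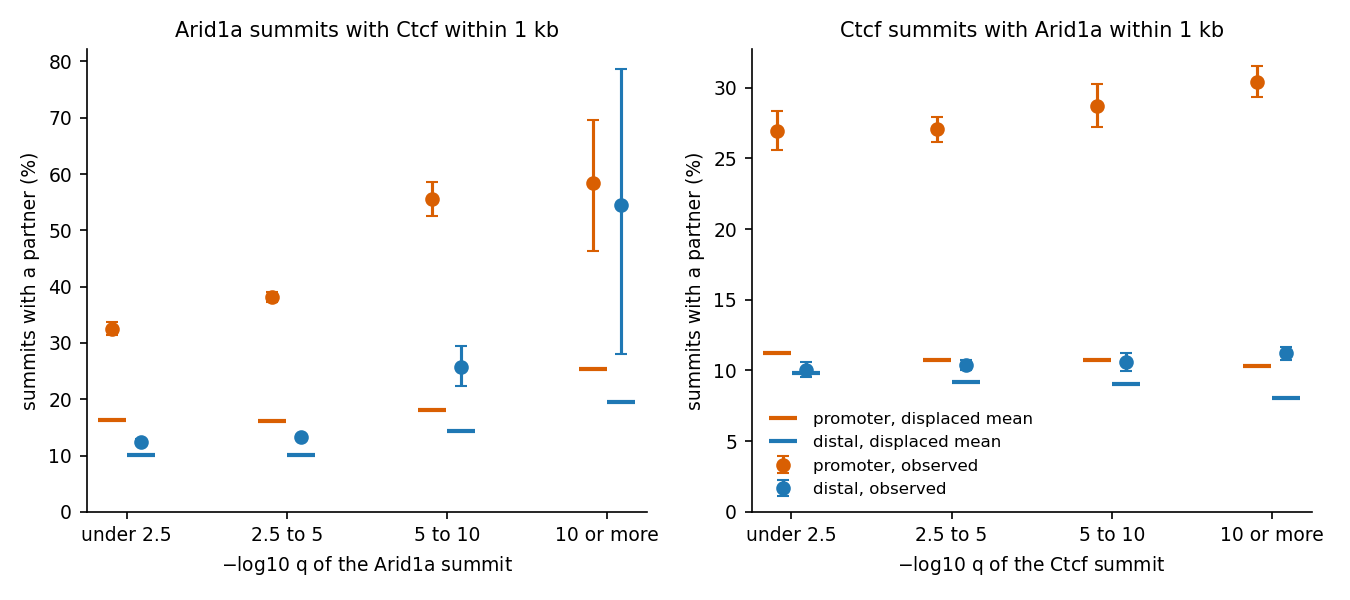
Percentage of Arid1a summits with a Ctcf summit within 1 kb (left) and of Ctcf summits with an Arid1a summit within 1 kb (right), by −log10 q class of the first-named summit, with a different y scale in each panel. Points are observed shares with 95% Wilson intervals, and horizontal bars are means over 1000 local displacements. Promoter shares lie at 32.5% or more on the left and at 26.9% or more on the right, and the distal Ctcf points lie between 10.1% and 11.2%, with displaced means from 9.82% in the lowest class to 8.06% in the highest.

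Partners lay within 1 kb of each other by definition, and few of them coincided. Distances among partners are bounded by this limit, whereas the densities that follow are not. The median distance from an Arid1a summit to its Ctcf partner was 382 bp, 364 bp at promoters and 401 bp at distal positions. Within 100 bp of each other were 13.97% (13.4 to 14.56) of these pairs. The density of Ctcf summits within 100 bp of promoter Arid1a summits was 2.98 times the density 10 to 50 kb away. It stood at 1.93 times just inside the limit of 1 kb (750 to 1000 bp) and at 1.83 times just outside it (1000 to 1500 bp), so the limit cuts a continuous decline. Around distal Arid1a summits the density was 1.52 times the far level within 100 bp, 1.14 times just inside the limit and 1.11 times just outside it. Around distal Ctcf summits the Arid1a density was 1.39 times the far level within 100 bp, 1.11 times at 400 to 500 bp and 1.02 times at 1000 to 1500 bp.

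**Figure D2:**
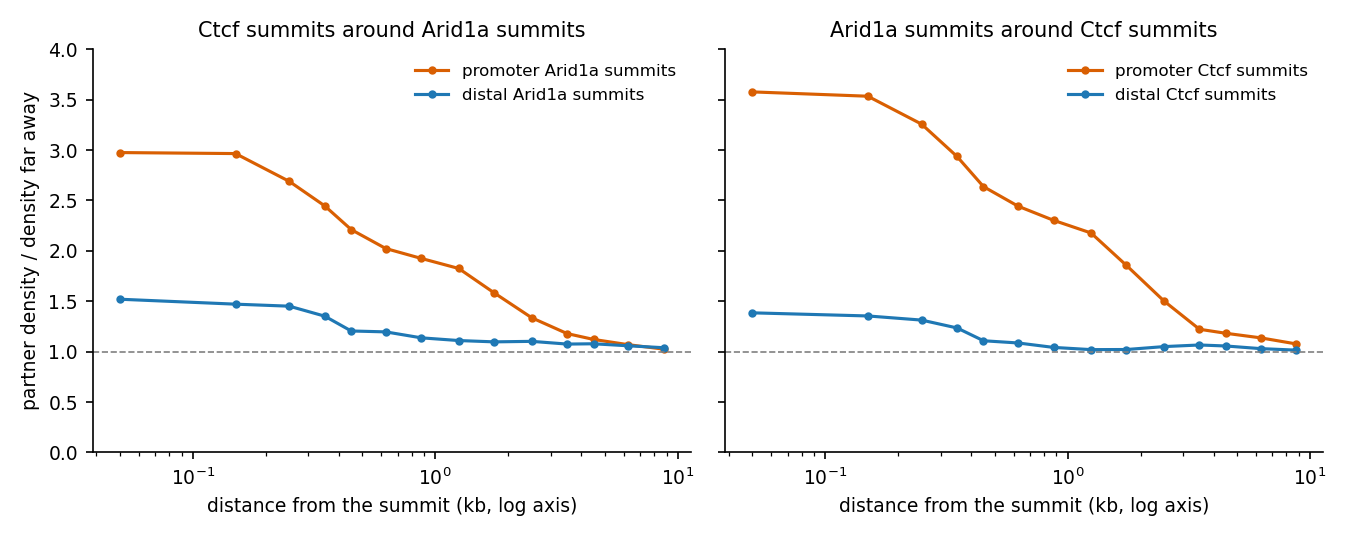
Density of partner summits by distance from promoter and distal summits, divided by the density 10 to 50 kb away, with distance in kb on a log axis. Ctcf around Arid1a is on the left and Arid1a around Ctcf on the right. The promoter curves start at 2.98 and 3.58 and decline over several kb, and the distal curves start at 1.52 and 1.39 and lie near 1.1 at 400 to 750 bp on the right.

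The position of Arid1a relative to an oriented Ctcf motif was examined at 5226 consensus matches under Ctcf summits, which had 666 Arid1a summits within 1 kb. The median distance was 417 bp, bounded by the limit of 1 kb. Of these summits, 49.7% (45.9 to 53.5) lay downstream of the motif, read along its strand. No side was preferred within this interval.

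Next, both lists were set beside those of Brg1 and Rad21. Distal Ctcf summits with a Brg1 summit within 1 kb had Arid1a in 27.8% (26.8 to 28.7) against 13.7% displaced. The 56932 distal Ctcf summits without Brg1 had Arid1a in 7.91% (7.69 to 8.13), against 8.25% (range 7.97 to 8.57) displaced. In their lowest class, under 2.5, the values were 7.48% (6.99 to 7.997) and 9.12%, and in the highest, at 10 or more, 8.203% (7.77 to 8.66) and 7.299%. At promoters, Arid1a was found at 54.1% (53.0 to 55.2) of Ctcf summits with Brg1 and at 15.5% (14.9 to 16.1) of those without, against 13.2% and 9.53% displaced. Away from starts, the 8793 Ctcf summits with Brg1 thus lay above their displaced share. Those without Brg1 lay slightly below it as a whole, further below it in the lowest class and above it in the highest. Brg1 and Arid1a are subunits of the same complex and Brg1 was itself near 31.1% of all Arid1a summits, 2.17 times its displaced share, so this split is not independent of the Arid1a list.

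Rad21 split the Ctcf summits less. Distal Ctcf summits with Rad21 within 1 kb had Arid1a in 11.6% (11.28 to 11.95) against 8.79% displaced, and those without in 9.37% (9.05 to 9.70) against 9.21%. At promoters the shares were 33.5% (32.8 to 34.3) and 19.2% (18.4 to 20.1), against 10.8% and 10.6% displaced. Seen from Arid1a, the split was wide. Distal Arid1a summits with Rad21 had Ctcf in 44.8% (43.8 to 45.9), 3.11 times the displaced share, and the 43224 without Rad21 in 6.59% (6.36 to 6.82), which was 0.712 times the displaced share. Rad21 was within 1 kb of 55.8% of all Ctcf summits, 3.82 times its displaced share, so this split is not independent of the Ctcf list. As a scale for the excess of Arid1a at distal Ctcf (1.18), Rad21 at distal Ctcf stood at 3.86 times and Brg1 at distal Arid1a at 1.71 times the displaced share.

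**Figure D3:**
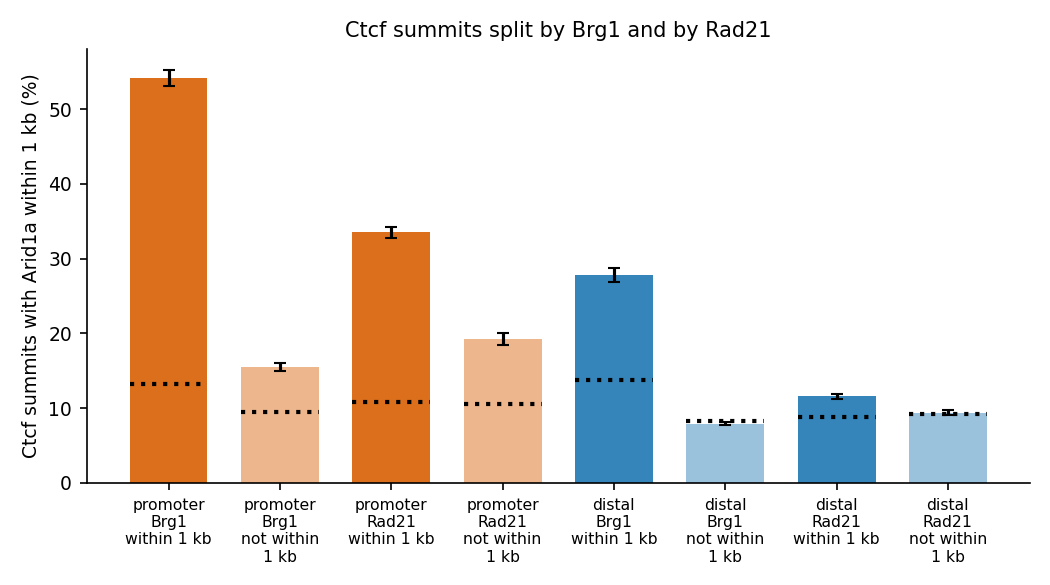
Percentage of Ctcf summits with an Arid1a summit within 1 kb, split by position and by whether a Brg1 or a Rad21 summit lay within 1 kb. Bars are observed shares, error bars 95% Wilson intervals, dotted lines the displaced mean of the same summits. The bars range from 54.1% at promoters with Brg1 to 7.91% at distal summits without Brg1, just under its dotted line of 8.25%.

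The histone marks separated Ctcf summits with and without Arid1a. Among promoter Ctcf summits, H3K27me3, the mark laid by Polycomb, was found within 1 kb in WT cells at 5.60% (5.08 to 6.18) with Arid1a and at 14.9% (14.3 to 15.4) without. At distal Ctcf summits the shares were 5.53% (5.02 to 6.10) and 13.72%, the latter of 58784 summits. Displaced lists already gave 8.33% and 12.7% at promoters and 7.698% and 12.5% at distal summits, so that part of the difference was also present in the neighbourhood. The H3K27me3 list of KO cells gave the same order, with 3.12% (2.73 to 3.56) and 12.2% (11.7 to 12.7) at promoters. H3K9me3, a mark of heterochromatin, went the other way in WT cells. It was within 1 kb of 44.95% (43.76 to 46.15) of promoter Ctcf summits with Arid1a and of 24.8% (24.1 to 25.4) without, against 20.9% and 18.4% displaced. In the H3K9me3 list of KO cells the same sites showed 7.59% (6.98 to 8.26) and 7.74% (7.35 to 8.15), below their displaced shares of 10.5% and 9.95%. At promoters the WT H3K9me3 list thus followed the shared sites and the KO list did not. At distal Ctcf summits the WT shares were 29.43% (28.37 to 30.52) with Arid1a and 17.4% (17.09 to 17.71) without, against 21.22% and 16.48% displaced. The KO shares there were 11.04% (10.32 to 11.79) and 9.285% (9.053 to 9.522), against 11.61% and 10.61% displaced. The distal KO list thus had the same order as the WT list, with both shares below displacement. With 1 library each, genotype and library cannot be told apart. With all summits near a WT H3K9me3 summit left out of both lists, an alternative chosen after seeing the data, promoter Ctcf summits had Arid1a in 20.35% (19.74 to 20.97) against 7.08% displaced, and distal ones in 8.66% (8.42 to 8.90) against 6.09%. Displaced summits could land in the regions left out, which lowers the displaced share by construction.

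Shared summits lay in GC-richer sequence than the others of their list at promoters and among distal Arid1a summits, but not among distal Ctcf summits. The median GC content of the 501 bp around promoter Arid1a summits was 55.1% with Ctcf and 45.9% without, and their median distance to a start was 345 and 700 bp. For distal Arid1a summits the median GC content was 44.7% with Ctcf and 41.3% without, against 41.7% in positions spaced evenly along the genome. Distal Ctcf summits had 44.5% with Arid1a and 44.9% without. The Arid1a share of Ctcf summits declined steadily with distance from a start, from 40.3% (39.0 to 41.5) within 250 bp to 17.6% (16.8 to 18.4) at 1 to 2 kb, 11.4% (10.9 to 11.9) at 5 to 10 kb and 6.43% (5.82 to 7.10) beyond 50 kb. The displaced shares in these bins were 10.6%, 10.8%, 9.94% and 4.48%.

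The Ctcf consensus, a 12-base pattern searched on both strands within 50 bp of the summit, was present at 0.0551% of evenly spaced genome positions. It occurred at 12.97% (11.8 to 14.2) of distal Ctcf summits of 5 or more with Arid1a and at 14.3% (13.8 to 14.7) of those without. At promoters it was less frequent with Arid1a, at 5.87% (5.09 to 6.77), than without, at 10.4% (9.75 to 11.2). Read the other way, promoter Ctcf summits of 10 or more had Arid1a in 20.02% (17.46 to 22.86) when they carried the consensus and in 31.9% (30.8 to 33.2) when they did not. This difference was also seen within 250 bp of a start, with 26.4% (20.98 to 32.56) of 220 against 41.3% (39.2 to 43.4) of 2033. For distal summits of this height the shares were 10.5% (9.51 to 11.6) and 11.4% (10.9 to 11.9), with overlapping intervals. The absence of a match means only that the strict pattern is not in the window.

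Of 9 shorter motifs searched on both strands in the same window, some were more and others less frequent at promoter Arid1a summits with Ctcf. SP/KLF boxes (GGGCGGGG), which GC-box factors bind, were found at 4.199% (3.75 to 4.70) of promoter Arid1a summits with Ctcf and at 1.62% (1.41 to 1.87) without. ETS motifs (CCGGAAG) were found at 2.10% (1.78 to 2.47) and 1.29% (1.10 to 1.51). At positions moved by 2000 bp the SP/KLF shares were 0.917% and 0.819% and the ETS shares 0.517% and 0.617%. Evenly spaced genome positions held them in 0.286% and 0.301%. Both motifs are GC-rich, as is the sequence of the shared promoter summits. In the other direction, AP-1 motifs (TGANTCA) were found at 1.75% (1.46 to 2.09) with Ctcf and 2.94% (2.65 to 3.27) without, NFY boxes (CCAAT) at 9.64% (8.96 to 10.4) and 12.2% (11.6 to 12.8), and FOX motifs (TGTTTAC) at 1.04% (0.820 to 1.31) and 1.68% (1.46 to 1.94). The genome shares of these were 2.99%, 15.8% and 1.46%. At moved positions the AP-1 shares with and without Ctcf were 2.7% and 2.6%. Those of NFY were 12.1% and 13.7%, and those of FOX 1.33% and 1.31%. These motifs hold more A and T than G and C. For NRF1, YY1, TEAD and C/EBP motifs the intervals with and without Ctcf overlapped. Among distal Arid1a summits of 5 or more without Ctcf, the AP-1 motif stood at 5.83% (4.01 to 8.41), against 6.05% at moved positions, which lies inside the interval.

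To compare starts with starts, the outermost start of each of 20780 autosomal protein-coding genes was scored for a summit within 2 kb. Arid1a was found at 37.0% of starts, Ctcf at 44.0% and both at 24.4%. Both were found at 5066 starts, Arid1a alone at 2613 (12.6%), Ctcf alone at 4071 (19.6%) and neither at 9030. Ctcf was present at 65.97% (64.9 to 67.02) of starts with Arid1a and at 31.1% (30.3 to 31.9) of starts without, a ratio of 2.12. The ratio was above 1 on all 19 autosomes, from 1.61 on chromosome 18 to 2.69 on chromosome 7, although the share of starts with Arid1a ran from 12.5% on chromosome 14 to 51.4% on chromosome 19.

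The ratio narrowed as the GC content of the start rose. The Ctcf share of starts without Arid1a rose as well, which leaves less room for a high ratio. In the fifth of starts with the lowest GC content (median 41.7%), Ctcf was at 37.6% (33.43 to 41.96) of starts with Arid1a and 9.37% (8.47 to 10.4) of those without. In the fifth with the highest (median 70.9%), the shares were 75.3% (73.5 to 76.9) and 57.4% (55.1 to 59.6), a ratio of 1.31. The ratio narrowed further among starts that had Rad21, a split that is not independent of Ctcf. With Rad21 and without Brg1, Ctcf was at 68.7% (66.1 to 71.2) of starts with Arid1a and at 64.1% (62.3 to 65.8) without, and with both it was at 74.7% (73.4 to 75.9) and 68.4% (66.3 to 70.4). Where neither was present the shares were 24.4% (21.2 to 27.8) and 9.16% (8.53 to 9.84). Rad21 itself was at 79.5% (78.6 to 80.4) of starts with Arid1a and at 36.5% (35.7 to 37.3) of starts without.

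**Figure D4:**
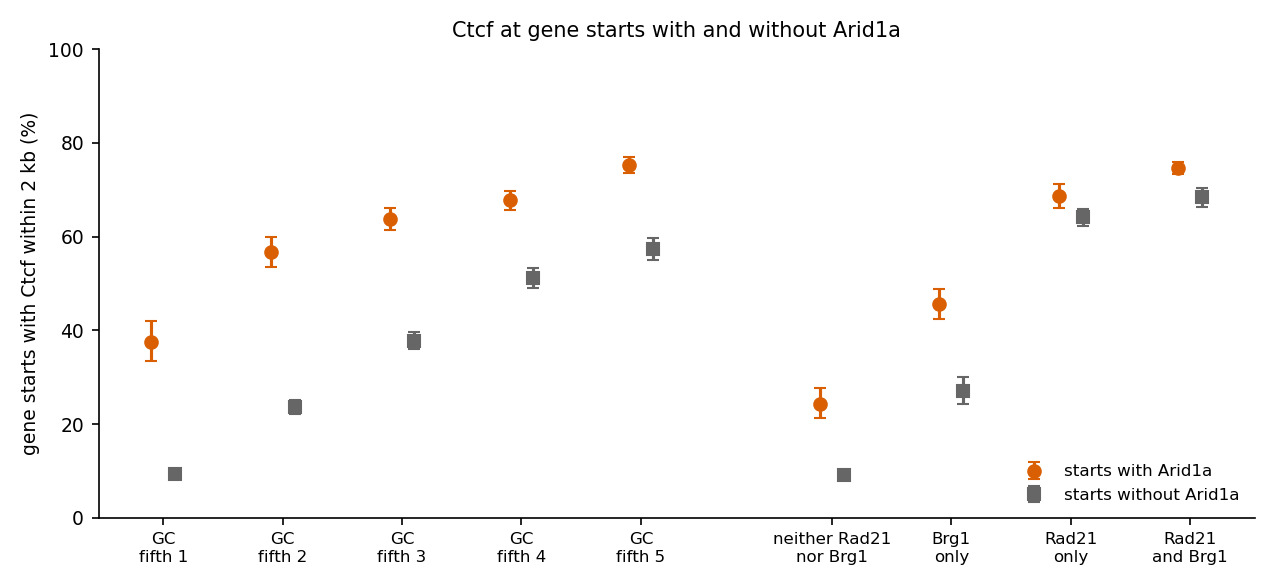
Percentage of gene starts with a Ctcf summit within 2 kb, for starts with (circles) and without (squares) an Arid1a summit, in 5 classes of rising GC content on the left and in 4 classes by Rad21 and Brg1 on the right, with 95% Wilson intervals. The gap is 37.6% against 9.37% in the lowest GC class and 68.7% against 64.1% at starts with Rad21 only.

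At the 5066 shared starts the highest Arid1a summit lay a median of 152 bp downstream of the start, with 38.5% (37.1 to 39.8) upstream of it, and the highest Ctcf summit 53.5 bp downstream, with 47.3% (46.0 to 48.7) upstream. Ctcf was upstream of Arid1a, in the direction of the gene, at 52.3% (50.9 to 53.7) of these starts, and the median distance between both summits was 687 bp. H3K27me3 of WT cells was found within 2 kb at 11.5% (10.6 to 12.4) of shared starts, 11.4% (10.2 to 12.7) of starts with Arid1a alone, 34.9% (33.5 to 36.4) with Ctcf alone and 30.1% (29.12 to 31.01) with neither. In this mark the shared starts lay at the level of starts with Arid1a alone, and starts with Ctcf alone lay above all other classes.

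The gene lists covered pathways of the cell type and the complexes themselves. Against the 24.4% of all starts with both proteins, replication-dependent histone genes had both at 42 of 67 starts, ribosomal protein genes at 45 of 75, and AP-1 and immediate early genes at 11 of 16. Genes of the Ras-MAPK feedback list, many of which damp the pathway that H-Ras V12D activates, had both at 10 of 15. Each protein alone was also frequent in these lists, beside 37.0% of all starts with Arid1a and 44.0% with Ctcf. Arid1a and Ctcf were at 62 and 51 of the ribosomal protein starts and at 13 and 14 of the immediate early starts. At the feedback genes they were at 11 and 12 starts. Counts with both rise with the single counts by construction, so they do not measure co-occurrence beyond these. SWI/SNF subunits had both at 10 of 25, cohesin genes and Ctcf at 5 of 13, hepatocyte transcription factors at 6 of 20 and Hox genes at 11 of 39. Genes of hepatocyte plasma proteins had both at 2 of 23 starts. Imprinted genes had both at 0 of 18 starts, which allows a share of up to 16.7% (3 counts of the total). Ctcf was at 6 of them (33.3%) and Arid1a at 1 (5.56%), both shares below those of all starts.

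Histone genes, whose mRNAs are made in S phase, had Arid1a at 65 of 67 starts and Ctcf at 42, against 37.0% and 44.0% of all starts. The genes stand in dense clusters and many starts share a summit, so that 73 Arid1a and 31 Ctcf summits lay behind these counts. The highest Arid1a summit was the one shared by Hist1h2be and Hist1h1e, at 9.62, with no Ctcf summit within 2 kb of either start. The highest Ctcf summit was at Hist3h2a (29.6), with Arid1a at 4.99. Reads from near-identical histone copies may be assigned to the wrong copy. Among ribosomal protein genes, Rps20 had the highest Arid1a summit (9.09) with Ctcf at 24.7, Rps3a1 had Arid1a at 7.03 with Ctcf at 93.9, and Rpl26 had the highest Ctcf summit (96.7) with Arid1a at 1.79. These numbers are −log10 q-values, here and for the genes that follow.

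Immediate early genes are switched on within minutes by growth signals. Junb, an AP-1 subunit, had the highest Arid1a summit of the list (20.9) with a weak Ctcf summit (3.15). Its paralog Jund had both at height, with 14.5 for Arid1a and 55.9 for Ctcf. At Egr2, a zinc finger factor, Ctcf reached 72.7 with no Arid1a summit. Among the feedback genes, Phlda1 had Arid1a at 6.65 and Ctcf at 27.4, whereas Spry1, an inhibitor of receptor tyrosine kinase signalling, had Ctcf at 32.7 with no Arid1a summit.

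Of the SWI/SNF genes, Phf10 had the highest Arid1a summit (7.97) with Ctcf at 2.23, and Smarcc2, a core subunit, had Arid1a at 7.16 with Ctcf at 85.4. Brd7, of the PBAF form, had the highest Ctcf summit (94.2) with Arid1a at 1.57. The start of Arid1a itself had Arid1a at 2.56 and Ctcf at 4.51. Among cohesin genes, Pds5a, a regulator of cohesin release, had both at 4.22 and 79.7, and the start of Ctcf had Arid1a at 3.76 and Ctcf at 65.0. Esco1, a cohesin acetyltransferase, had the highest Ctcf summit of this list (100.7) with Arid1a at 3.36. Gata6, a zinc finger factor of endoderm, had the highest Arid1a summit among the hepatocyte factors (4.62) with Ctcf at 30.3. Cebpb, a liver transcription factor also induced by stress, had Arid1a at 4.45 and the highest Ctcf summit of its list, at 60.95. Hnf4a, a master regulator of hepatocytes, had neither within 2 kb of its outermost start. Other starts of a gene were not scored. Apoh had Arid1a at 5.31 and Ctcf at 3.95, Apob had Ctcf at 61.04 and no Arid1a summit, and Alb had neither. In the Hox clusters, Hoxb6 had the highest Arid1a summit (5.36) with Ctcf at 3.95, and Hoxc10 had Ctcf at 85.2 with Arid1a at 2.59. At the imprinted genes, Gnas had Ctcf at 32.7 without Arid1a, and Nnat had Arid1a at 1.79 without Ctcf. Of the genes singled out by the study, Atg10 had Arid1a at 3.99, Six2 had Ctcf at 2.72, and Pmp22, Gsc, Rnf125 and Cdh5 had neither. The study discussed Pmp22 through a loop to an enhancer and Gsc through an upstream element. Only 2 kb around the outermost start was scored here, so sites further away were not covered.

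The cell type was set beside marker genes. Of the 6 hepatocyte markers, Trf, which encodes transferrin, had both proteins at its start (3.33 for Arid1a and 2.72 for Ctcf). Apoa1 had Ctcf at 44.5, while Alb, Ttr, Hnf4a and Serpina1a had neither within 2 kb of the outermost start. Of the 7 mesenchymal markers, 6 had Arid1a and 5 had both. Col1a1, which encodes the fibrillar collagen chain, had Arid1a at 7.61 and Ctcf at 129, and Vim had 4.80 and 43.7. Arid1a was at 3 of 5 biliary, 1 of 5 endothelial and 1 of 5 leukocyte markers. Beside the 37.0% of all starts with Arid1a and the 24.4% with both, the counts of these lists rest on 5 to 7 genes each. A summit at a start is not a measure of expression, and whether the labelled hepatocytes express these genes was not tested.

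The 8 highest shared promoter sites lay at Actb, Parp16, Arl4d, Rplp0, Prdx1, Hspa8, Unc5b and H3f3b, with Arid1a from 11.6 to 32.3. The first was in an intron of Actb, which encodes beta-actin, 715 bp downstream of its start, at chr5:142906039, with Arid1a at 32.3 and Ctcf at 64.8 at a distance of 228 bp. Brg1 lay 71 bp and Rad21 251 bp away. The site at Prdx1, which encodes an antioxidant peroxidase, was at chr4:116685683 in an intron, with Arid1a at 14.4 and Ctcf at 44.0 at 183 bp. At Hspa8, which encodes the constitutive Hsc70 chaperone, the pair lay 27 bp apart at chr9:40801443, with 14.4 for Arid1a and 13.5 for Ctcf. The site at Rplp0, which encodes a protein of the ribosomal stalk, was in the UTR exon at chr5:115559656, and its Ctcf summit of 80.8, which carries the first motif printed above, lay 367 bp away. Of these 8 sites, 7 had Brg1 and 6 had Rad21 within 1 kb. Over all promoter Arid1a summits of 5 or more with Ctcf, the shares were 87.05% for Brg1 and 81.8% for Rad21. The pair nearest to Arl4d lay 6620 bp upstream of it, and was counted as promoter because of another transcript's start. The H3f3b site, 3538 bp downstream of the outermost start, was likewise a promoter site by another start.

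The 8 highest distal shared sites were lower, with Arid1a from 7.06 to 13.3. They were nearest to Ctdsp1, Ppp1r10, Hspa8, 1700001O22Rik, Hcn2, Ier5l, Upk3b and Arhgef2, and 4 had Brg1 and 7 had Rad21 within 1 kb. Over all distal Arid1a summits of 5 or more with Ctcf, both shares were 71.7%. The highest of the 8 sites lay in intergenic sequence at chr1:74397914, 6405 bp downstream of the start of Ctdsp1, a phosphatase of the RNA polymerase II tail, with Arid1a at 13.3 and Ctcf at 35.1 at 324 bp. A second Hspa8 site, at chr9:40807298 and 6314 bp downstream of the start, had Arid1a at 9.60 and Ctcf at 32.7 at 694 bp. The site near Hcn2, an ion channel gene, was at chr10:79712836, 3798 bp upstream of the start, with 8.66 for Arid1a and 48.8 for Ctcf at 203 bp.

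Among the highest Arid1a summits without Ctcf within 5 kb was that of Mki67, the proliferation marker, at chr7:135716317 in its UTR exon (12.4), with the nearest Ctcf summit 20151 bp away and Brg1 24 bp away. The other promoter sites of this kind were assigned to Eapp (13.9, 14821 bp upstream), Fth1 (11.6, 2274 bp downstream) and Hist1h2be (9.62), the first pair being promoter sites by another start, and the distal ones by the nearest coding start to Hnrnpa2b1 (12.4), Ubash3b (10.3, at 432768 bp from it), Spp1 (9.08) and Tmem176a (8.73). The Spp1 site, at chr5:104407976, lay 27142 bp upstream of this gene, which encodes osteopontin. Brg1 was within 1 kb of 7 of these 8 sites and Rad21 of 3. Over all Arid1a summits of 5 or more without Ctcf within 1 kb, the shares were 67.6% for Brg1 and 45.25% for Rad21.

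The highest Ctcf summits without Arid1a within 5 kb reached 150 to 218 at promoters and 193 to 236 at distal positions. All 8 had Rad21 within 1 kb, at distances of 3 to 146 bp, and 2 had Brg1. Over all Ctcf summits of 5 or more without Arid1a within 1 kb, the shares were 81.9% for Rad21 and 14.8% for Brg1. The promoter summit near Arid3a, at chr10:79925475 and 1568 bp upstream of its start, had Ctcf at 208, Rad21 at 105 and a weak Brg1 summit of 2.69 at 300 bp, and its nearest Arid1a summit was 8776 bp away. The Sec22c summit, in an intron at chr9:121697776, had Ctcf at 229 and Rad21 at 34.2. The summit assigned to A530032D15Rik lay 5051 bp upstream of it in an intron of C130026I21Rik and was a promoter site by another start, and that of Fam92b in an intron of Gm20388. The sites at A530032D15Rik, C130026I21Rik, Gm15319 and 4930467E23Rik lie in multicopy gene families, where reads of near-identical copies cannot be placed with certainty, and their heights are uncertain for this reason.

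The chromosomes differed far more in Arid1a than in Ctcf. Arid1a summits numbered from 3.67 per Mb on chromosome 14 to 64.5 per Mb on chromosome 19, a ratio of 17.6, and Ctcf summits from 17.9 per Mb on chromosome 13 to 60.4 per Mb on chromosome 11, a ratio of 3.38. The part of copy number or input coverage in these densities was not tested. Protein-coding genes per Mb differed by 2.60 times. Accordingly the share of Ctcf summits with Arid1a went from 3.92% on chromosome 14 to 26.4% on chromosome 19, and the displaced share from 1.62% to 17.2%. Over the 19 autosomes the share and the Arid1a density had a Pearson r of 0.957 and a Spearman rho of 0.970, which is a description of 1 pair of libraries. A denser list raises the share by construction. The displaced share had a Pearson r of 0.964 with the density, and the ratio of both shares went the other way, with a Pearson r of -0.728 and a Spearman rho of -0.816. The ratio of observed to displaced share was above 1 on every autosome, from 1.50 on chromosome 5 to 2.42 on chromosome 14, with a median of 1.66. For distal Ctcf summits of 10 or more, the share ran from 2.01% on chromosome 14 to 22.4% on chromosome 19.

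**Figure D5:**
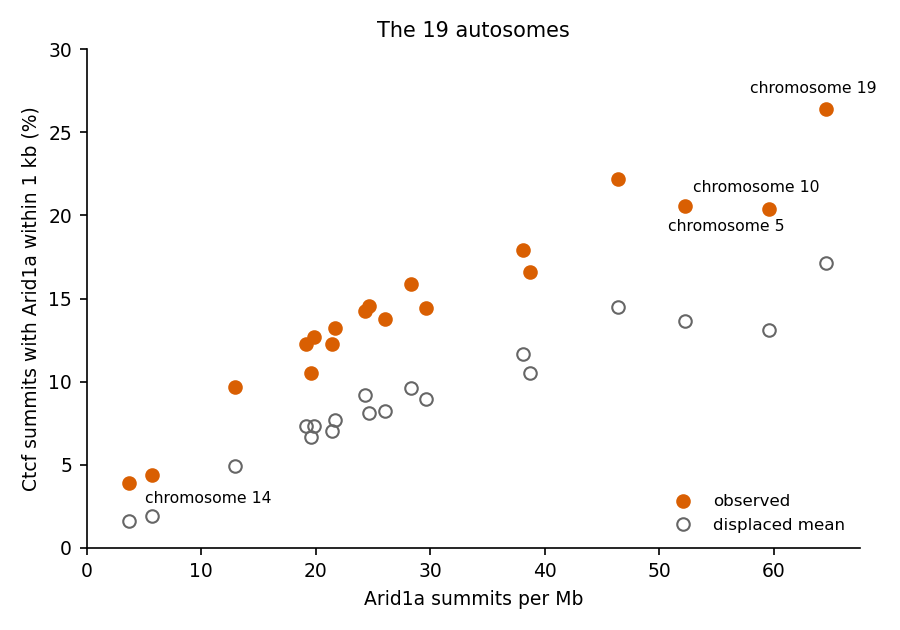
Percentage of Ctcf summits with an Arid1a summit within 1 kb against Arid1a summits per Mb for the 19 autosomes. Filled points are observed and open points are means over local displacements. Observed shares rise from 3.92% on chromosome 14 to 26.4% on chromosome 19, and each lies above its open point.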

How the data were processed

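AB17 cells were profiled by ChIP-seq with 1 library per antibody and genotype, and samples were grouped by title. According to the methods of the study, the authors used Bowtie2 for alignment to mm10. SAMtools served to discard reads of low quality and Picard to discard duplicates. MACS2 was run with its default settings, with the matching input as control. Tool versions were not given in the sources used here. The deposited lists give 1 summit per peak with a −log10 q-value assigned by the authors' MACS2 run. The unit was read from the values, as the lists have no header. Deeper libraries give more and higher peaks, so values served only to rank summits within a list.

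Partner shares were computed with Python 3.11.15, numpy 2.4.6, pandas 2.3.3 and scipy 1.17.1, and reference sequence was read with pysam 0.24.0 from GRCm38. Each partner list was moved 1000 times in the main comparison, and 200 times for alternatives and for other pairs of lists. The splits by Brg1 and Rad21, the histone marks and the bins of distance to a start used 100 moves. The counting was tested on simulated lists with planted partners. Transcript starts, genes and exons were those of GENCODE vM21. GC content was that of the summit or start with 250 bp of flank per side.

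The members, gene lists and comparisons were chosen with earlier results of these data known. Named sites lay on autosomes other than 18, with no more soft-masked than unmasked bases around the summit and 1 site per nearest protein-coding gene. They were the 8 promoter and 8 distal Arid1a summits of highest value with a Ctcf summit of 10 or more within 1 kb, and the 4 promoter and 4 distal summits of each list of highest value with no summit of the other within 5 kb. From each gene list up to 4 genes were named, from those with the highest Arid1a or Ctcf values at the start. Which of these were named, and the addition of Arid1a, Hnf4a and Alb, was decided after their values were seen. All hepatocyte markers and all genes the study singled out were given. The lists were SWI/SNF subunits, cohesin genes with Ctcf, hepatocyte transcription factors and plasma proteins, AP-1 and immediate early genes, Ras-MAPK feedback genes, imprinted genes, ribosomal proteins, replication-dependent histones, Hox genes, genes the study singled out, and cell type markers. The older symbol Tf was matched to Trf. Summits on X, Y and the mitochondrial genome were left out. Alternatives were another limit, threshold, chromosome set, repeat filter, list length, merging, mark filter, chromosome filter, displacement and promoter window.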

Additional observations from a re-analysis of the deposited data

Results flagged for a closer look

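Summits on the sex chromosomes lay outside the comparison, and their numbers were above the limit that a count of 0 allows. On X there were 218 Arid1a and 1934 Ctcf summits, or 1.28 and 11.3 per Mb, against 28.5 and 36.2 per Mb on the autosomes. Of the Ctcf summits on X, 1.50% (1.05 to 2.15) had an Arid1a partner, and of the Arid1a summits on X 12.8% (9.04 to 17.9) had a Ctcf partner. On Y there were 33 Arid1a and 183 Ctcf summits, 0.360 and 1.995 per Mb, and 11 of each had a partner.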

How the results depend on the processing

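No paired analysis was possible because each group holds 1 library and no result comes from a test. Both ratios stayed above 1 under all 11 alternatives to each. The values below give, in this order, the Arid1a share, the Ctcf share, and the ratios of the Arid1a and of the Ctcf share to displacement. They were 19.3%, 15.2%, 1.65 and 1.61 as reported. A limit of 500 bp gave 11.96%, 9.32%, 1.86 and 1.84, and 2 kb gave 28.6%, 23.6%, 1.45 and 1.41. With both lists held to summits of a −log10 q-value of 5 or more, the values were 23.3%, 1.10%, 3.16 and 3.13, from 1740 Arid1a and 36545 Ctcf summits. This low Ctcf share follows from the few Arid1a summits left. Without summits on soft-masked bases the values were 17.3%, 13.7%, 2.01 and 1.96, and without summits near H3K9me3 or H3K27me3 summits 14.6%, 12.4%, 2.09 and 2.07. In both, displaced summits could land in the sequence left out, which raises the ratios by construction. The Ctcf list cut to the length of the Arid1a list gave an Arid1a share of 15.8% and ratios of 1.71 and 1.67. Merging of clustered summits gave 18.1%, 14.8% and an Arid1a ratio of 1.62. With X and Y, the Ctcf share was 14.9%. Leaving out chromosomes 19, 10 and 5, the densest in Arid1a, gave 19.9%, 13.8%, 1.69 and 1.65. Offsets of 50 to 200 kb gave ratios of 1.80 and 1.75. The other alternatives stayed within the counting interval of the reported value. The promoter shares were 43.0% and 34.3% with a promoter window of 1 kb and 30.97% and 22.1% with 5 kb. Unknown depth and the low Arid1a peaks limit every share, since an unlisted site may lie just under the calling threshold.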
